A study of Mus musculus with 4 samples.

Results

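The EGF receptor (ErbB) family and its ligands were followed through TGFβ treatment of Py2T cells, a mouse breast cancer line that loses epithelial features under TGFβ. The set holds 10 genes, the receptors Egfr, Erbb2, Erbb3 and Erbb4 and the ligands Areg, Ereg, Hbegf, Tgfa, Btc and Nrg1, taken by name from the array's gene table. Of these, 9 had a probe set with that symbol alone, out of 19938 genes with such a probe set. Areg had no probe set, alone or shared with other symbols, so its expression is not analysed here. Each of the 9 had a single such probe set, so no choice between probe sets was needed. The arrays are 2 from untreated cells and 2 from cells kept for 5 days with TGFβ at 2 ng/ml, all in serum-containing medium. The labels call the arrays of a group biological replicates and say nothing more about the cultures. Whether these were grown and treated separately is not stated, so a p-value covers only the spread among these arrays. Arrays are numbered by replicate, as array 1 and array 2 of each group, and their values are given in that order. Py2T is a single line, derived from a mammary tumour of a mouse carrying the polyoma middle T oncogene.

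ErbB receptors are membrane tyrosine kinases that pair up when a ligand binds. Egfr is bound by Areg, Ereg, Hbegf, Tgfa and Btc, and Ereg, Hbegf and Btc can also bind Erbb4, while Nrg1 binds Erbb3 and Erbb4. Erbb2 has no known ligand of its own and serves as a partner, and Erbb3, whose kinase is weak, signals through its partners and couples strongly to PI3 kinase. Ligands are made as membrane proteins and are released by ADAM proteases. In the mammary gland the family drives duct growth and alveolar differentiation, and it is a frequent driver of breast cancer.

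After TGFβ the family split in both of its arms. Egfr rose 2.07-fold and Erbb3 fell 4.04-fold among the receptors, and Hbegf rose 1.70-fold and Nrg1 fell 1.61-fold among the ligands. Erbb2, Erbb4, Ereg, Tgfa and Btc did not pass the test. Of 9 members 4 were thus called, with limma at an adjusted p under 0.05, against 13.6% of all genes. Of those 4, 2 were higher, against 6.49% of all genes, and 2 were lower, against 7.15%. The same limma fit on all 35556 probe sets, adjusted over all of them, passed Egfr (adjusted p = 0.014) and Erbb3 (adjusted p = 0.034). There Hbegf (adjusted p = 0.092) and Nrg1 (adjusted p = 0.091) did not pass, so the ligand calls depend on the probe sets tested. Members other than Erbb4 lay in the brighter 50% of genes, of which 22.9% were called. In 7 members, all but Erbb4 and Ereg, the TGFβ arrays did not overlap the untreated ones, which was also the case for 52.6% of all genes. The median difference of the 9 members was -0.10 on the log2 scale, against 0.0097 for all genes. All values below are RMA log2 levels, or log2 differences between them. Each probe set has its own response, so calling a gene bright or dim on the array is only a rough guide to its RNA level. Beyond that, levels are not compared between genes.

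**Figure D1:**
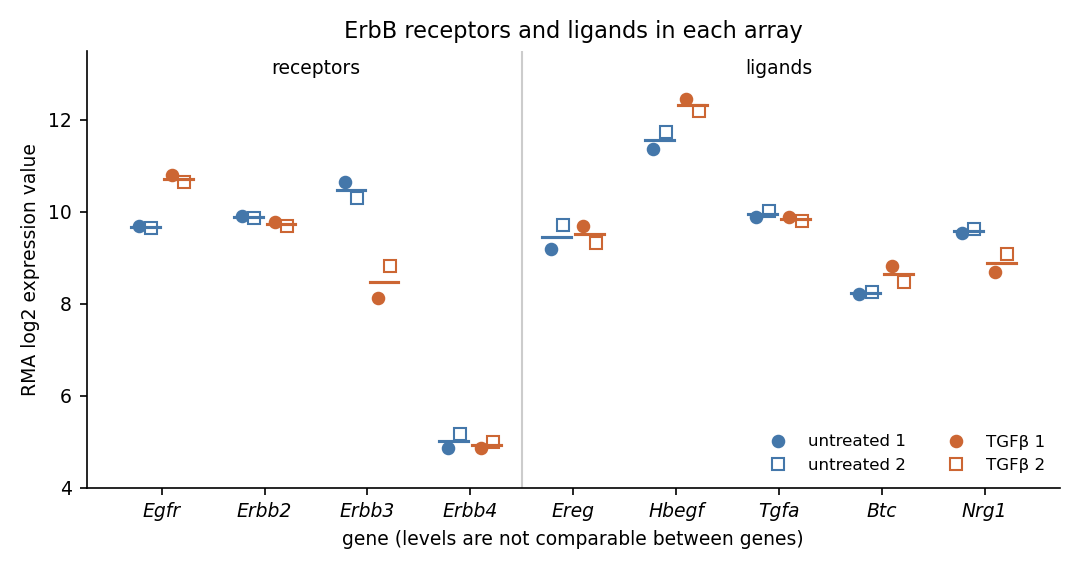
RMA log2 expression value of the 9 measured ErbB genes in each of the 4 arrays (circles replicate 1, open squares replicate 2, blue untreated, orange TGFβ), with a bar at each group mean (n = 2). The groups are far apart for Erbb3 (means 10.48 and 8.47) and Egfr (9.67 and 10.72) and overlap for Ereg and Erbb4.

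The line's epithelial label was checked on marker genes. Untreated cells had Krt8 at 13.52, Krt18 at 13.34, Cdh1 at 11.57 and Epcam at 11.84, all far up the array's range of 3.328 to 14.29. Other luminal markers were dim there, with Krt19 at 6.10, Elf5 at 5.82 and Foxa1 at 7.46, and the basal keratin Krt14 stood at 11.14 beside Krt5 at 6.19. Of 13 luminal epithelial markers 6 fell and 7 did not pass (46.2% called, beside 13.6% of all genes). Their summed linear level went from 50594 to 52846 in untreated arrays to 42528 to 45176 in TGFβ arrays. Such sums are weighted toward the brightest probe sets and, as levels are not comparable between genes, do not measure marker content. Among 7 fibroblast markers 2 rose (28.6% called), Pdgfrb and Col1a1, while Dcn, Lum and Dpt stayed near the bottom of the range. The summed fibroblast level was 893 to 959 before and 1198 to 1341 after. Of 7 basal markers 1 fell, Krt14 (14.3% called, near the 13.6% of all genes). Krt14 measured 10.79 and 11.49 untreated and 10.16 and 9.36 with TGFβ (adjusted p = 0.043 in limma). The basal list held 0 calls with an intensity trend and robust variances, and also with the replicate number as a block. The summed basal level went from 2314 to 3535 down to 1223 to 1708. The leukocyte, endothelial and adipocyte lists, of 7, 5 and 4 genes, had 0 calls with limma and 1, 0 and 1 genes at an unadjusted p under 0.05. The summed leukocyte level was 887 to 1296 before and 589 to 743 after, where Cd68 differed by -1.29 (adjusted p = 0.052) and Ptprc, the defining marker, was near the bottom of the range at 5.53 in both groups. An array value has no true zero, so no marker can be read as absent. In bulk RNA, fewer cells of a type and less RNA per cell cannot be told apart. The part of these marker shifts in the ErbB results was not tested.

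Egfr, the receptor that gives the family its name, measured 9.70 and 9.64 untreated, then 10.80 and 10.64 with TGFβ. Both TGFβ arrays were high, and the gap between the groups was several times the distance within either. The mean went from 9.67 ± 0.04 to 10.72 ± 0.11 (SD, n = 2), a difference of 1.05 ± 0.09 (SE, 95% interval 0.84 to 1.26, adjusted p = 0.0016). It was called under each scaling, filter and variance alternative and without each array, with adjusted p from 0.000346 to 0.0076.

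Erbb3, the partner that binds neuregulin, had levels of 10.66 and 10.31 untreated and 8.12 and 8.81 with TGFβ. It was low in both TGFβ arrays, with TGFβ array 1 the lower. The mean went from 10.48 ± 0.25 to 8.47 ± 0.49, a difference of -2.02 ± 0.24 (SE, 95% interval -2.60 to -1.43, adjusted p = 0.0053). Without TGFβ array 1 the difference was -1.67 and on dropping TGFβ array 2 it was -2.36, and the gene was called in each case. Erbb3 thus had the largest difference of the 9 measured members, and it fell beside the luminal markers Cldn7 (-2.18), Cdh1 (-1.25) and Epcam (-1.10). Of the 13 luminal markers 6 fell in all and 7 did not pass, among them Krt8 (0.06), Krt18 (-0.11) and Cldn4 (0.21). Cdh1, which encodes E-cadherin, was likewise lower in TGFβ array 1 (9.97) than in array 2 (10.66). The part of these markers in the Erbb3 result was not tested.

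Erbb2, the partner without a ligand, measured 9.90 and 9.87 before and 9.79 and 9.70 after TGFβ. The TGFβ arrays were slightly below the untreated ones without overlap, and the difference of -0.15 ± 0.08 (SE, 95% interval -0.34 to 0.04, adjusted p = 0.31) did not pass. A second probe set, which lists Erbb2 together with Sympk and so names neither alone, was dim at 5.28 and 5.27 untreated and 5.20 and 5.23 after TGFβ. Erbb4, the other neuregulin receptor, measured 4.86 and 5.18 untreated and 4.86 and 4.99 with TGFβ. These levels are at percentile 13.1 of all gene means, near the array's background, and the groups overlap. Its difference was -0.10 ± 0.12 (SE, 95% interval -0.40 to 0.20), and a change in so dim a gene may not be detectable here.

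The RefSeq promoter table (build GRCm38.p6) held 6 of the 10 genes, Egfr, Erbb2, Erbb4, Areg, Btc and Tgfa. The 250 bases before the start site of Egfr and of Erbb2 are shown because the receptors sit on one chromosome and the first rose while the second was not called. Capitals mark a match to a searched motif. They were read from chr11:16751953-16752202 and chr11:98412234-98412483, both on the plus strand.
Egfr: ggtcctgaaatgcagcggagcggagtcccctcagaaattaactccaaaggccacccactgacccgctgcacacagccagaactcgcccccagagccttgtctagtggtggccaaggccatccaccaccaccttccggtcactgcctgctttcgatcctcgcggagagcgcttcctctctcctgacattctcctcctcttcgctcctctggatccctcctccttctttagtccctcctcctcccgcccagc
Erbb2: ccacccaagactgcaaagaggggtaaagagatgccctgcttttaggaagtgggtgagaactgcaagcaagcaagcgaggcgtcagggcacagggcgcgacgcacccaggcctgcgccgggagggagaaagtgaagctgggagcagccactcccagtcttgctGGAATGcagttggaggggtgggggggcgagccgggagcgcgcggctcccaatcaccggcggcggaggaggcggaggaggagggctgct
The motifs searched, on both strands, were the palindromic Smad site GTCTAGAC, the AP-1 site TGANTCA and the TEAD site GGAATG. Of the 6 promoters 1 had a match, the TEAD letters in Erbb2, starting 88 bases before the start site, so no matches overlapped. The TEAD letters were searched because the study's title names the factor Tead2. In 32851 promoters of the same length these letters were found in 12.6%, the AP-1 letters in 6.75% and the Smad palindrome in 0.167%. The Egfr window was 60.8% G or C and the Erbb2 window 66.0%, against a median of 52.4% over all promoters. A match describes letters only and is no evidence of binding.

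Hbegf, an Egfr ligand that also binds heparan sulfate, measured 11.37 and 11.73 untreated and 12.46 and 12.18 with TGFβ. Both TGFβ arrays were above both untreated ones, with more distance between the groups than within either. The mean went from 11.55 ± 0.26 to 12.32 ± 0.19, a difference of 0.77 ± 0.15 (SE, 95% interval 0.39 to 1.14, adjusted p = 0.026). The call was lost on dropping untreated array 1 (0.59, adjusted p = 0.079) or TGFβ array 1 (0.63, adjusted p = 0.089).

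Nrg1, the ligand of Erbb3 and Erbb4, measured 9.54 and 9.62 untreated and 8.70 and 9.09 with TGFβ. It was low in both TGFβ arrays, more so in replicate 1, as for Erbb3. The mean went from 9.58 ± 0.06 to 8.89 ± 0.27, a difference of -0.69 ± 0.14 (SE, 95% interval -1.02 to -0.35, adjusted p = 0.027). The call was lost on dropping untreated array 1 (-0.73, adjusted p = 0.073) or untreated array 2 (-0.64, adjusted p = 0.094).

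The other Egfr ligands did not pass. Btc, betacellulin, measured 8.21 and 8.26 untreated and 8.83 and 8.46 with TGFβ, higher in both TGFβ arrays. Its difference of 0.41 ± 0.13 (SE, 95% interval 0.09 to 0.73) had an adjusted p of 0.105 and passed on dropping TGFβ array 2, at 0.59 (adjusted p = 0.020). It was 0.23 on dropping TGFβ array 1 (adjusted p = 0.245) and 0.38 on dropping untreated array 1 (adjusted p = 0.305). Tgfa, the ligand that normally acts on the cell that makes it, measured 9.89 and 10.02 untreated and 9.88 and 9.81 with TGFβ. Its TGFβ arrays lay just under the untreated ones, and the difference was -0.11 ± 0.08 (SE, 95% interval -0.31 to 0.09, adjusted p = 0.51).

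Ereg, epiregulin, stood at 9.19 and 9.71 untreated and at 9.70 and 9.32 with TGFβ. Each group had a high and a low array, so the groups overlap, and the arrays within a group differed more than the group means did. The difference was 0.06 ± 0.20 (SE, 95% interval -0.44 to 0.56, adjusted p = 0.92). It ran from -0.20 on dropping untreated array 1 to 0.32 on dropping untreated array 2 and did not pass in either case.

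**Figure D2:**
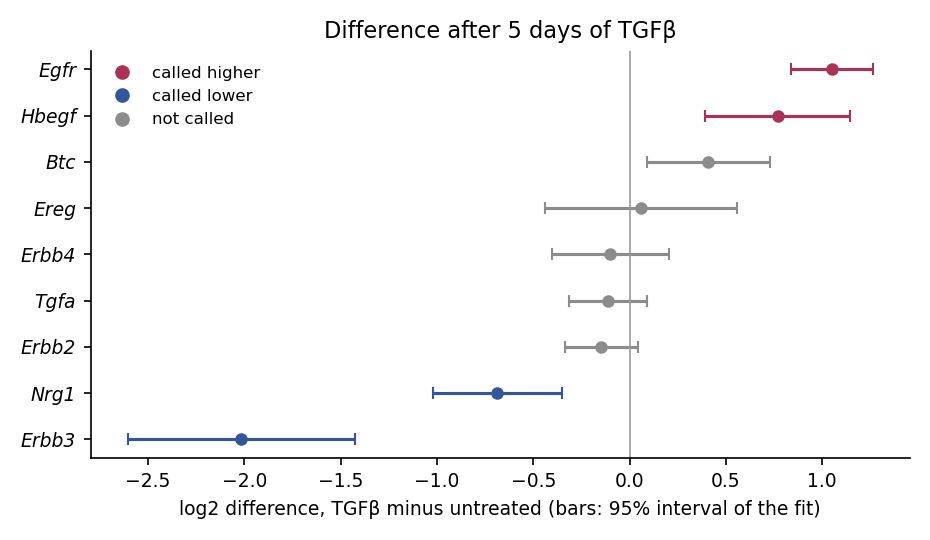
Log2 difference, TGFβ minus untreated, of the 9 ErbB genes with the 95% interval of the limma fit (n = 2 arrays per group), ordered by size. The intervals of Egfr and Hbegf lie above 0 and those of Erbb3 and Nrg1 below it, and that of Btc also excludes 0 although its adjusted p of 0.105 did not pass.

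Leaving out an array changed the number of called members between 2 and 5. It was 2 on dropping untreated array 1 (Egfr and Erbb3), 3 on dropping untreated array 2 or on dropping TGFβ array 1, and 5 on dropping TGFβ array 2. The receptor calls were kept each time, while all changes of call were in the ligands Hbegf, Nrg1 and Btc. Median centring, cyclic loess and repeated quantile normalization kept the sign of all 9 differences and the 4 calls.

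**Figure D3:**
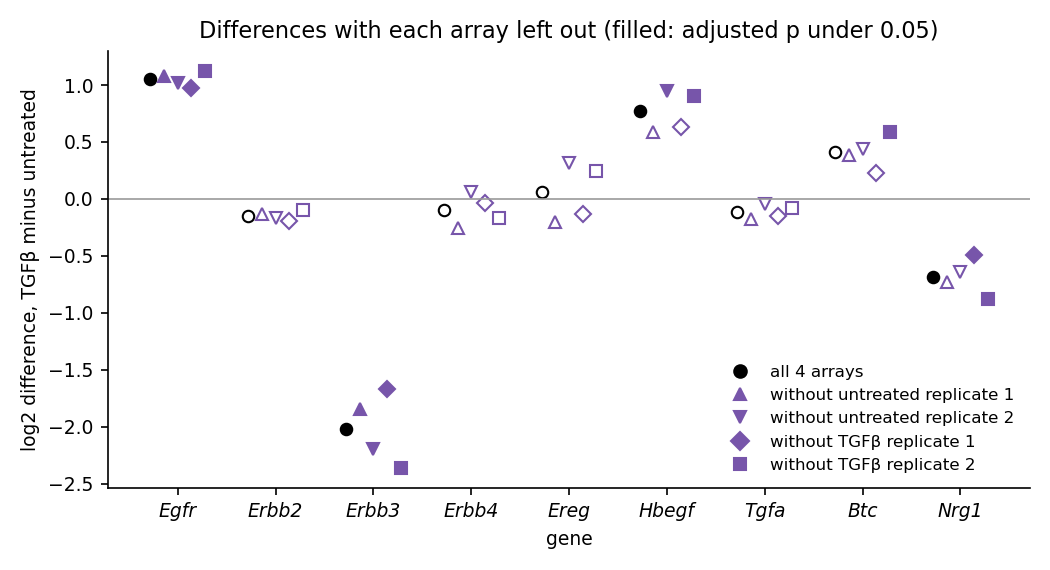
Log2 difference, TGFβ minus untreated, of the 9 ErbB genes with all 4 arrays (black) and with each array left out (purple), filled where the adjusted p is under 0.05. Egfr (0.97 to 1.13) and Erbb3 (-2.36 to -1.67) stay filled throughout, and Ereg (-0.20 to 0.32) and Erbb4 (-0.26 to 0.06) change sign.

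The 4 arrays were also searched for the genes most like the receptor that rose and the one that fell, by the Euclidean distance of the 4 values after each gene's own mean was subtracted. Genes with Gm or Rik names and olfactory (Olfr) and vomeronasal (Vmn) receptor genes were left out of this search. Nearest to Egfr were Lsp1, an actin-binding protein, at a distance of 0.048, the protease Ctsf at 0.073 and Smad7, the inhibitory Smad, at 0.083. Smad7 measured 10.18 and 10.21 untreated and 11.26 and 11.11 with TGFβ. Nearest to Erbb3 were Kdf1, which acts in keratinocyte differentiation, at 0.13, the AMP deaminase Ampd3 at 0.16 and the glycosyltransferase Large2 at 0.22. Kdf1 measured 10.06 and 9.73 untreated and 7.66 and 8.18 with TGFβ. It is high and low in the same arrays as Erbb3 because it was chosen for its closeness to Erbb3 in them. With 4 arrays such distances describe these arrays only.

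The rest of the pathway was followed in lists of ligands, proteases, adaptors, inhibitors, kinases and response genes. Of 97 measured genes in them 18 rose, 17 fell and 62 did not pass, or 36.1% called, with a median difference of 0.035 against 0.0097 for all genes. The called share of all genes was 13.6%, and it was 22.9% of the brighter 50% of genes. Without single arrays 26 to 29 of them were called. The lists are mostly bright genes, with 9 of the 97 in the dimmer 50%, so their shares stand beside the 22.9%. The calls of 20 of the 35 genes were kept without each array and under each scaling, filter and variance alternative, and the arrays that the other calls rest on are named below.

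**Figure D4:**
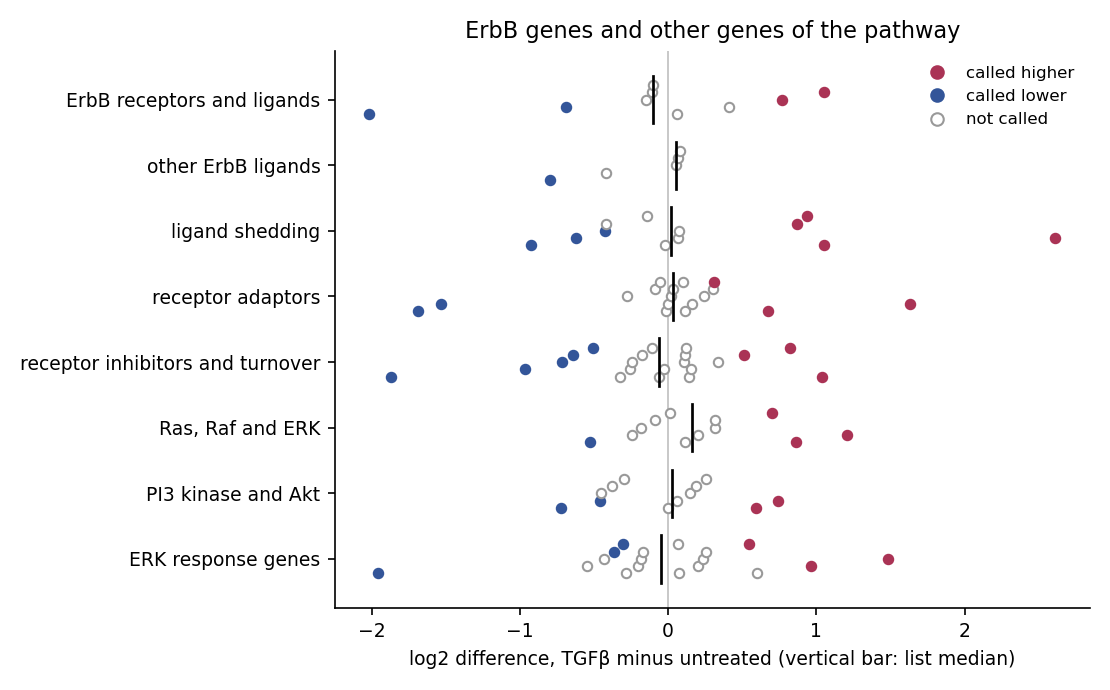
Log2 difference, TGFβ minus untreated, of each gene of the ErbB family and of 7 lists of other pathway genes (points), with the list median as a vertical bar. Filled points are called at an adjusted p under 0.05, and every list median lies within 0.16 of 0 while single genes reach 2.61 (Timp3) and -2.02 (Erbb3).

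Of 5 further ErbB ligands, Epgn, Egf, Nrg2, Nrg3 and Nrg4, 1 fell and 4 did not pass (20.0% called, beside 13.6% of all genes). All but Nrg2 lie in the dimmer 50% of genes, and 1 call among 5 is near that share. Epgn, epigen, measured 6.47 and 7.02 untreated and 5.95 and 5.94 with TGFβ, a dim gene whose untreated arrays differed. It fell by 0.80 ± 0.18 (SE, adjusted p = 0.037). The value was -1.07 on dropping untreated array 1 and -0.52 on dropping untreated array 2, and the call was lost on dropping TGFβ array 1 (-0.81, adjusted p = 0.106) or 2 (-0.79, adjusted p = 0.0996). Nrg2, a second Erbb3 and Erbb4 ligand, differed by -0.42 (adjusted p = 0.052). The dim genes Egf, Nrg3 and Nrg4 differed by 0.07, 0.05 and 0.08, none of them called (adjusted p = 0.70, 0.84 and 0.62). This list held 2 calls on dropping untreated array 1.

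Genes that release ligands or limit that release were called in 7 of 12 cases (58.3%, beside 22.9% of the brighter genes), 4 higher and 3 lower, with a median of 0.022. Adam17, the protease that sheds most Egfr ligands, measured 10.53 and 10.41 untreated and 9.86 and 9.84 with TGFβ. It fell by 0.62 ± 0.08 (SE, adjusted p = 0.0068), and Adam10, the main protease for Btc, differed by 0.07 (adjusted p = 0.68). Timp3, a secreted inhibitor of Adam17, measured 9.69 and 9.85 untreated and 12.59 and 12.17 with TGFβ. It rose 6.11-fold (2.61 ± 0.15, adjusted p = 0.000618), the largest difference among the pathway genes. Timp1, an inhibitor of matrix metalloproteinases and Adam10, rose by 0.94 (adjusted p = 0.0095), so 2 of the 4 rises were protease inhibitors. The other two were Adam15 (1.05, adjusted p = 0.0026) and Adam12 (0.87, adjusted p = 0.013), a protease able to shed Hbegf. Adam8 fell by 0.93 (adjusted p = 0.023) and Adam9 by 0.43 (adjusted p = 0.024). The Adam8 call was lost on dropping untreated array 2 (adjusted p = 0.062) or TGFβ array 2 (adjusted p = 0.061), and that of Adam9 on dropping untreated array 1 (adjusted p = 0.13) or TGFβ array 1 (adjusted p = 0.078) or 2 (adjusted p = 0.070).

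Adaptors that bind the active receptors showed 3 rises and 2 falls among 17, with a median of 0.035. Their called share of 29.4% was near the 22.9% of the brighter genes. Gab2, a docking protein for PI3 kinase and Shp2, measured 8.77 and 8.32 untreated and 10.10 and 10.25 with TGFβ, a rise of 3.10-fold (adjusted p = 0.0026). Plcg1, a phospholipase recruited by Egfr, rose by 0.67 (adjusted p = 0.010) and Grb2, the link to Ras, by 0.31 (adjusted p = 0.041). Grb7, an adaptor that binds Erbb2 and Erbb3, measured 10.25 and 9.86 untreated and 8.31 and 8.74 with TGFβ, a fall of 2.89-fold (adjusted p = 0.0056). Eps8, an Egfr substrate that acts on actin, went from 11.22 and 11.21 to 9.01 and 10.04, a difference of -1.69 ± 0.31 (SE, adjusted p = 0.021). Its call was lost on dropping untreated array 1 (adjusted p = 0.065) or 2 (adjusted p = 0.058) and under the robust variance model with an intensity trend (adjusted p = 0.059). That of Grb2 was lost with the same variance model (adjusted p = 0.092) and on dropping any single array, with an adjusted p between 0.099 and 0.18. The list then held 3 calls without either untreated array.

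Inhibitors and turnover genes of the receptors showed 3 rises and 5 falls among 21 (38.1% called, beside 22.9% of the brighter genes), with a median of -0.060. The ubiquitin ligases of the Cbl family, which send Egfr to degradation, went in different directions. Cbl rose by 0.82 (adjusted p = 0.012) and Cblb by 0.51 (adjusted p = 0.012), while Cblc, the form found in epithelia, measured 9.71 and 9.36 untreated and 7.53 and 7.80 with TGFβ. It fell 3.65-fold (adjusted p = 0.0015). Spred2, an inhibitor of Ras to ERK signalling, rose 2.05-fold (adjusted p = 0.0011), and Socs5, which promotes Egfr turnover, fell 1.95-fold (adjusted p = 0.0013). The receptor phosphatases Ptprk (-0.72, adjusted p = 0.0031) and Ptprj (-0.64, adjusted p = 0.022) and the endocytic adaptor Epn1 (-0.51, adjusted p = 0.022) also fell. Errfi1, a feedback inhibitor of Egfr, differed by -0.06 (95% interval -0.27 to 0.15) and Lrig1, which lowers ErbB receptor levels, by 0.11 (95% interval -0.07 to 0.29). The Cblb call was lost on dropping untreated array 2 (adjusted p = 0.064). That of Ptprj was lost on dropping untreated array 1 (adjusted p = 0.087) or 2 (adjusted p = 0.065), and that of Epn1 on dropping untreated array 1 (adjusted p = 0.098) or TGFβ array 1 (adjusted p = 0.071) or 2 (adjusted p = 0.068).

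Of 12 measured Ras, Raf and ERK cascade genes 3 rose and 1 fell (33.3% called, beside 22.9% of the brighter genes), with a median of 0.16. Ksr1, the scaffold of the cascade, rose 2.31-fold (adjusted p = 0.0012), Map2k1, which encodes the kinase Mek1, 1.82-fold (adjusted p = 0.0026) and the small GTPase Mras by 0.70 (adjusted p = 0.0053). The Ras relative Rras2 fell by 0.53 (adjusted p = 0.013), a call lost on dropping untreated array 2 (adjusted p = 0.064). Of 12 PI3 kinase and Akt genes 2 rose and 2 fell (also 33.3%), with a median of 0.028. Pik3r1, the main regulatory subunit, measured 9.86 and 9.91 untreated and 9.26 and 9.07 with TGFβ, a difference of -0.72 (adjusted p = 0.0063). Pdpk1, the kinase that activates Akt, fell by 0.46 (adjusted p = 0.015), a call lost on dropping untreated array 1 (adjusted p = 0.082) or 2 (adjusted p = 0.064) or TGFβ array 2 (adjusted p = 0.053). The phosphatase Inpp4b rose by 0.74 (adjusted p = 0.043), a call lost on dropping untreated array 1 (adjusted p = 0.13) or TGFβ array 1 (adjusted p = 0.14). Pik3r2, another regulatory subunit, rose by 0.59 (adjusted p = 0.049). Its call was lost on dropping untreated array 2 (0.39, adjusted p = 0.12), TGFβ array 1 (adjusted p = 0.099) or TGFβ array 2 (adjusted p = 0.15), and with cyclic loess (adjusted p = 0.058) or repeated quantile normalization (adjusted p = 0.052). This list held 2 calls on dropping untreated array 1 or either TGFβ array.

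Genes that usually follow ERK activity showed 3 rises and 3 falls among 18 (33.3% called, beside 22.9% of the brighter genes), with a median of -0.052. Spry1, a feedback inhibitor of receptor tyrosine kinase signalling, measured 9.70 and 9.46 untreated and 7.65 and 7.61 with TGFβ, a fall of 3.88-fold (adjusted p = 0.000493). Dusp4, a nuclear ERK phosphatase, measured 10.23 and 9.78 untreated and 11.36 and 11.61 with TGFβ, a rise of 2.79-fold (adjusted p = 0.0043). The AP-1 subunit Junb rose 1.95-fold (adjusted p = 0.0063) and the stress response gene Ier3 by 0.55 (adjusted p = 0.016), the latter not called on dropping untreated array 1 (adjusted p = 0.080). The cytoplasmic ERK phosphatase Dusp6 fell by 0.31 (adjusted p = 0.0495) and Ccnd1, cyclin D1, by 0.37 (adjusted p = 0.025). Both calls were lost whichever array was dropped, the adjusted p then lying between 0.13 and 0.25 for Dusp6 and between 0.073 and 0.13 for Ccnd1. Dusp6 was also not called without the dimmest 25% of genes (adjusted p = 0.054). Egr1, an immediate early gene, measured 8.18 and 8.94 untreated and 8.41 and 7.86 with TGFβ, with overlapping groups and a difference of -0.43 (95% interval -1.13 to 0.27). The Egr1 difference ranged from -0.81 on dropping untreated array 1 to -0.048 on dropping untreated array 2, and it was not called in either case. The list held 3 calls on dropping untreated array 1 and 4 without either TGFβ array.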

How the data were processed

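Total RNA of 4 samples was measured on Affymetrix arrays. The authors deposited RMA values on the log2 scale, made with the oligo package per the submitters' processing notes. Its version and the summary level are not given in the sources available. RMA includes quantile normalization, which would hide a shift shared by most genes. Array medians were 6.742 to 6.756, and having 4 arrays limits the precision.

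Of 35556 probe sets 21789 carry 1 symbol in the platform's gene table. The brightest by mean over the arrays stood for each gene. The test was limma's (version 3.58.1, R 4.3.3, lmFit and eBayes, two-sided, 2 residual and 3.77 prior degrees of freedom), with Benjamini-Hochberg adjustment over 19938 genes. An exact permutation test of 2 against 2 cannot go below p = 0.333 and was not used. On simulated data with 200 of 19938 genes changed, 14.5%, 88.2% and 99.1% of log2 differences of 0.5, 1 and 2 were recovered, with 8.3 false calls per simulation. The simulation changed fewer genes than the 2720 called here and drew its noise from the fitted variance model. Its rates therefore need not hold for these arrays.

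The members and lists were chosen with earlier results of these data known. The rule names all members, up to 2 called rises and falls per list, 5 set genes (Errfi1, Lrig1, Adam17, Egr1, Dusp6) and the 3 nearest genes of 2 members. Timp1, Adam12, Adam9, Grb2, Cblb, Ptprk, Ptprj, Epn1, Mras, Ier3, Nrg2, Egf, Nrg3, Nrg4, Adam10 and the markers were named after their values were seen. Alternatives were 3 scalings, 2 filters on dim genes, the mean of all probe sets, an intensity trend with robust variances, a replicate block and leaving out each array. Apart from these, the same fit was run on all 35556 probe sets, with adjustment over them.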

Additional observations from a re-analysis of the deposited data

How the results depend on the processing

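Members gave 115 comparisons with an alternative, counting the crossed pairing named below, which gained the limma call of Btc (adjusted p = 0.035). Only the scalings and leaving out an array could change a member's difference, as the other alternatives leave it the same. Of the 115 the call and direction were kept in 105, 5 calls were lost, 2 were gained and 3 differences, none of them called, changed sign. The sign changes were in Erbb4, from -0.26 to 0.058, and Ereg, from -0.20 to 0.32, over the arrays left out. Errfi1, also not called, ran from -0.13 to 0.015. Leaving out an array gave 1535 to 2260 called genes, against 2720 with all arrays (1535 and 1764 without untreated replicates 1 and 2, 1811 without TGFβ replicate 1), and 2 to 5 called members, against 4. With 1 array left in a group, its spread was taken from the other group. With the replicate number as a block 1624 genes and 3 members were called, Hbegf not among them (adjusted p = 0.084). That block also lost the calls of Epgn, Adam8, Adam9, Grb2, Epn1, Inpp4b, Pik3r2, Ccnd1 and Dusp6. The numbers are not known to pair the cultures: same-numbered arrays deviated from their group means with a correlation of -0.213 over genes. The crossed pairing, chosen after seeing the data, called 3640 genes and 5 members. Dimness limits Erbb4, Epgn, Egf, Nrg3 and Nrg4.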

Other observations

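The order of protein-coding genes in the RefSeq table of GRCm38.p6 places Epgn, Ereg, Areg and Btc next to each other. Along this row of Egfr ligands Epgn fell by 0.80 on the log2 scale (adjusted p = 0.037), Ereg differed by 0.06 and Btc by 0.41, the last 2 not called in limma. Mien1 lies between Erbb2 and Grb7, genes often amplified together in human breast cancer. Grb7 fell by 1.53 ± 0.18 (SE, adjusted p = 0.0056), while Erbb2 differed by -0.15 (adjusted p = 0.31), Mien1 by -0.21 (adjusted p = 0.33) and Pgap3, on the far side of Erbb2, by -0.19 (adjusted p = 0.29). Add2, an adducin of the membrane skeleton next to Tgfa, rose by 1.05 (adjusted p = 0.0068), where Tgfa differed by -0.11. These neighbours were looked at after the members' values were seen, and whether neighbours differ more or less alike than other genes was not tested.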
